A study of Mus musculus with 20 samples.

Results

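The 10 genes described here encode subunits of the SWI/SNF chromatin remodelling complexes: Smarcb1, Smarca4, Smarca2, Smarcc1, Smarcc2, Smarcd1, Smarce1, Arid1a, Arid2 and Pbrm1. They were chosen by name, as the rows of these genes among the 34234 genes measured in 20 bulk RNA libraries of kidney tumours in mice. The tumours were of 1 cell line, MSRT1, which the labels class as renal medullary carcinoma. In patients this cancer typically lacks the SMARCB1 protein. Each library came from 1 mouse, and the mice formed 4 groups of 5. Veh_IgG received vehicle and a control antibody, and GYY_IgG received GYY4137, a compound that releases hydrogen sulfide slowly, with the control antibody. Veh_PD1 received vehicle with an antibody against the T cell checkpoint receptor PD1, and GYY_PD1, called the combination below, received GYY4137 with that antibody. The strain and age of the mice, the doses and the way in which MSRT1 was made are not given in the sources used here, nor is which part of Smarcb1, if any, was removed in the line. All groups carried the same line, so no group served as a tumour with a known intact Smarcb1.

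SWI/SNF complexes use the energy of ATP to slide or evict nucleosomes and so open enhancers and promoters. Each complex holds 1 ATPase, SMARCA4 or SMARCA2, on a core built around SMARCC1 and SMARCC2, and comes in a canonical BAF form with ARID1A, a PBAF form with ARID2 and PBRM1, and a noncanonical form with BRD9. SMARCB1 sits in the core of the BAF and PBAF forms, where it contacts the nucleosome, and is absent from the noncanonical form. Loss of SMARCB1 defines rhabdoid tumours and renal medullary carcinoma, and the other cells of such a tumour, the blood vessels, fibroblasts and immune cells of the host, keep the gene.

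Smarcb1 RNA was present in every tumour. Levels are in TPM, the length-corrected share of a gene's transcripts in its library on a scale with a constant total, so genes within 1 library can be compared. The level of Smarcb1 was 46.6, 19.5, 25.7, 25.8 and 33.0 TPM in the 5 Veh_IgG libraries and 40.6, 41.0, 7.33, 11.0 and 35.6 TPM in GYY_IgG. It was 7.31, 23.2, 13.5, 12.9 and 8.13 TPM in Veh_PD1 and 1.54, 19.0, 16.4, 1.17 and 17.4 TPM in GYY_PD1, each in the order of the replicates 1 to 5. The Veh_IgG level was the highest on average, and the libraries near 1 TPM were replicates 1 and 4 of GYY_PD1. All GYY_PD1 libraries lay below the lowest of Veh_IgG (19.5 TPM), and the highest of them, at 19.0 TPM, lay just below it. On this scale GYY_PD1 lay wholly below Veh_IgG for 7 of the 10 members, against 48.9% of all tested genes, and the groups overlapped for all 10 in each of the other comparisons. The group means were 30.1 ± 10.3, 27.1 ± 16.6, 13.0 ± 6.33 and 11.1 ± 8.93 TPM (SD, n = 5 each).

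Much of that range was shared with the other genes of the same libraries. Satellite-like gene models, which hold tandem repeats and were identified by sequence, took from 1.63% to 83.4% of the TPM of a library (median 19.5%), and the median of the 15422 genes tested ranged from 0.589 to 10.9 TPM. The satellite-like share was 3.53% to 13.2% in Veh_IgG and 25.8% to 83.4% in GYY_PD1, ranges that did not overlap. Replicate 4 of GYY_PD1 held the highest share, and replicate 1 of GYY_PD1 stood apart from all others, with a median Spearman correlation of 0.389 against a median of 0.902 over all libraries. Only 8198 genes reached 1 TPM in GYY_PD1 replicate 1 and 6659 in replicate 4, against a median of 14034 over all libraries. The library medians of these replicates were 0.589 and 0.791 TPM. In the deposited column names, GYY_PD1 replicate 1 and GYY_IgG replicate 5 carry numbers far from those of the other libraries. What these numbers stand for is not stated. Levels are therefore also given relative to the library median, as log2 TPM minus the median log2 TPM of the tested genes in that library, and results are given with and without GYY_PD1 replicates 1 and 4. TPM hold no read numbers, so sequencing depth could not be given. In bulk tissue, fewer cells of a type and less RNA per cell cannot be told apart.

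Relative to its library median, Smarcb1 lay above the median in 20 of 20 libraries, on average 2.97-fold above it. In GYY_PD1 replicates 1 and 4 that median was under 1 TPM, so their relative levels rest on low values and compare less well with the others. In Veh_IgG its relative level was 2.09, 1.40, 1.68, 1.72 and 1.85 log2 units, and in GYY_IgG it was 2.00, 1.96, 1.11, 1.70 and 1.87. In Veh_PD1 it was 1.34, 1.38, 0.87, 1.66 and 1.44, and in GYY_PD1 it was 1.39, 1.73, 1.64, 0.56 and 2.00. Replicate 4 of GYY_PD1 and replicate 3 of Veh_PD1 held the lowest relative levels, and every other library lay above 1. Smarcb1 ranked between the 62.0th and the 85.9th percentile of the tested genes, with a median of 81.2. These gene-level values do not show whether the transcript was intact, whether it made protein, or which cells it came from.

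Smarcb1 (ENSMUSG00000000902.13) lies at chr10:75896769-75921617 on the minus strand of mm10. None of the 1630 stretches of 31 bases in its longest coding transcript occurred in a transcript of another annotated gene. Copies with mismatches and copies outside the annotation were not searched for. The neighbouring genes had lower medians than Smarcb1. Derl3, an endoplasmic reticulum degradation gene 828 bases away, had a median of 0.406 TPM and reached 1 TPM in 3 of 20 libraries. Mmp11, a matrix metalloprotease gene 1605 bases away, had a median of 4.79 TPM but ranged from 0.853 to 37.2 TPM. The promoter windows of Smarcb1, Smarca4 and Smarcc1 are shown because these 3 genes, of a core subunit, an ATPase and a scaffold subunit, shared a motif, and Smarcc1 and Smarca4 were among the 4 members whose levels ranked the libraries most like Smarcb1. The sequences are from RefSeq on GRCm38.p6, 300 bases each, mostly upstream of the annotated start and ending just past it, written 5′ to 3′ on the strand of the gene. Smarcb1 is at chr10:75921565-75921864 (minus strand), Smarca4 at chr9:21615919-21616218 (plus strand) and Smarcc1 at chr9:110131774-110132073 (plus strand). The Smarcc1 window belongs to a RefSeq start that lies inside the longer GENCODE gene model. Capitals mark GCATGCGC or its reverse complement GCGCATGC, the core of the NRF1 motif.
Smarcb1: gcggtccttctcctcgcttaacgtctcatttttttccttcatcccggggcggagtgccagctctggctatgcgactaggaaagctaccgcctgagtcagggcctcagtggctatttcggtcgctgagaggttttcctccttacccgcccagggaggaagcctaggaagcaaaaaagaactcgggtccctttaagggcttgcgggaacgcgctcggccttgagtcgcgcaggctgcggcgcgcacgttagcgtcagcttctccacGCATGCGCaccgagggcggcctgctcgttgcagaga
Smarca4: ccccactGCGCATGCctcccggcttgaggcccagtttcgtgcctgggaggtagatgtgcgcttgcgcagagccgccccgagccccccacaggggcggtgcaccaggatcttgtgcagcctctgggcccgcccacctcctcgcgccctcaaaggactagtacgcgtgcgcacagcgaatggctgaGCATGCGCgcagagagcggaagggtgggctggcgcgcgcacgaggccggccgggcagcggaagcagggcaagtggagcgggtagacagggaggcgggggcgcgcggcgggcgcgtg
Smarcc1: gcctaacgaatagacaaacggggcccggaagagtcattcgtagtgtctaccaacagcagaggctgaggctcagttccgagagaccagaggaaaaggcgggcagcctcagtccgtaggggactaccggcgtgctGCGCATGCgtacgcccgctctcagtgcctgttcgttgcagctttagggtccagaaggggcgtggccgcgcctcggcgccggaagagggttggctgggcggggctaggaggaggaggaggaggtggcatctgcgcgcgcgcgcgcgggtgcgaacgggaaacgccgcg
This core, searched on both strands and chosen after the sequences had been read, occurred in 3 of the 9 windows found for 8 members, and in 2.71% of the 32851 windows of the same length over all genes. No window was found for Smarce1 or Arid2. The GC box GGGCGG (or CCGCCC) occurred in 9 of 9 member windows and in 35.7% of all windows. The CCAAT box (CCAAT or ATTGG) and the TATA box (TATAAA or TTTATA) occurred in 0 of 9, against 37.4% and 13.6% of all windows. The member windows held 60.7% to 81.0% G and C (median 68.0%), against a median of 52.7% over all windows. They held 22 to 48 CG pairs, against a median of 7 and an upper quartile of 20 over all windows, and the core itself holds CG. A match describes the letters in a window and does not show that a factor was bound.

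The other 9 subunits were measured in all groups, and Smarcb1 was in the upper part of their range. Ordered by the mean level relative to the library median over 20 libraries, the bromodomain subunit of PBAF, Pbrm1, was highest at 2.12 ± 0.24 log2 units (SD, n = 20). It was followed by Smarce1, a DNA-binding core subunit, at 1.92 ± 0.34, and the scaffold gene Smarcc2 at 1.88 ± 0.16. Smarcb1 came next at 1.57 ± 0.39. Below it were the ATPase gene Smarca4 at 1.31 ± 0.54, the scaffold gene Smarcc1 at 1.07 ± 0.34 and the DNA-binding PBAF subunit Arid2 at 0.98 ± 0.21. The lowest were the alternative ATPase gene Smarca2 at 0.72 ± 0.25, the BAF subunit Arid1a at 0.58 ± 0.30 and the core subunit Smarcd1 at 0.54 ± 0.29. Every step between neighbours in this order except that from Arid2 to Smarca2 was smaller than the SD of at least 1 of the pair. On the TPM scale the medians over 20 libraries ran from 27.2 TPM for Pbrm1 to 8.26 TPM for Smarcd1, with Smarcb1 at 18.2 TPM. Of the 10, Smarcb1, Smarca2, Smarcc2, Arid2 and Pbrm1 reached 1 TPM in 20 of 20 libraries and the others in 19.

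The level of Smarce1 is uncertain, because 37.5% of the 31-base stretches of its transcript also occurred in other gene models, among them the pseudogene Smarce1-ps1. That share was 11.4% for Smarcd1 and 6.29% for Smarcc1, and at most 2.62% for the other members.

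**Figure D1:**
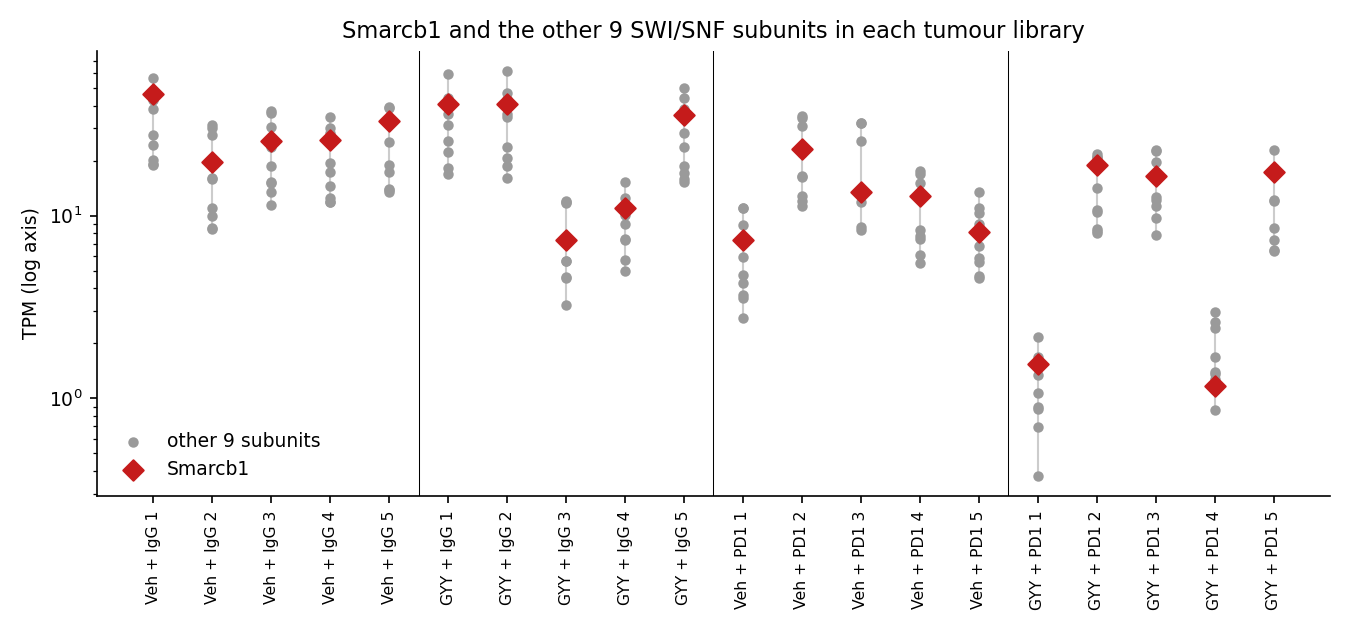
Level of each subunit in each of the 20 tumour libraries, in TPM on a log axis, with Smarcb1 as diamonds and the other 9 subunits as grey points; vertical lines separate the 4 groups of 5 mice. Smarcb1 lay within the range of the other subunits in every library, including the low libraries GYY_PD1 1 (1.54 TPM) and GYY_PD1 4 (1.17 TPM).

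Within a library, Smarcb1 ranked 4th of the 10 subunits in 14 of 20 libraries. It ranked 2nd in 1 library and 3rd in 2, and its lowest places were 5th in Veh_PD1 replicate 5, 6th in Veh_PD1 replicate 3 and 8th in GYY_PD1 replicate 4. Set against single subunits, Smarcb1 was higher than Smarcd1 and Arid1a in 20 of 20 libraries, by 1.03 and 0.99 log2 units on average. It was higher than Smarca2 in 19 libraries (0.85 log2 units), than Arid2 in 19 (0.59), than Smarcc1 in 18 (0.50) and than Smarca4 in 17 (0.26). It was lower than Pbrm1 in every library (by 0.55 log2 units on average) and higher than Smarcc2 and Smarce1 in only 2 of 20 libraries each.

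Smarcb1 exceeded the mean of the other 9 subunits by 0.33 ± 0.28 log2 units (SD, n = 20), or 1.26-fold. The excess was 0.48 ± 0.15 in Veh_IgG (range 0.32 to 0.63), 0.36 ± 0.14 in GYY_IgG (0.14 to 0.49), 0.20 ± 0.25 in Veh_PD1 (-0.21 to 0.41) and 0.31 ± 0.46 in GYY_PD1 (-0.46 to 0.63), with n = 5 each. The groups overlapped, and Smarcb1 fell short of the mean of the others in 2 libraries, Veh_PD1 replicate 3 (-0.21) and GYY_PD1 replicate 4 (-0.46). Replicate 1 of GYY_PD1, which stood apart in other respects, had an excess of 0.55, within the Veh_IgG range. The mean it is set against was lowered there by Smarca4 and Smarce1, so this excess does not show a usual balance. Relative to the library median these 2 genes were at -0.65 and 0.60, where the other GYY_PD1 libraries lay at 1.09 to 1.57 and 1.73 to 2.08.

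Neither treatment, nor both, moved a subunit past the threshold relative to the library median. The fit was limma over all 15422 tested genes and 20 libraries, and a gene was called at an adjusted p (Benjamini-Hochberg over all tested genes) below 0.05. The 4 groups shared 1 estimate of the spread, so the tests of single treatments also depend on the spread within GYY_PD1. For Smarcb1 the SD was 0.55 in GYY_PD1, against 0.25 in Veh_IgG, 0.36 in GYY_IgG and 0.29 in Veh_PD1. For GYY4137 alone (GYY_IgG minus Veh_IgG), 0 of 10 members were called and 0% of all genes, with 0 of the members and 178 of all genes at an unadjusted p under 0.05. The differences of the members ran from -0.12 for Smarcd1 to 0.29 for Smarcc1, with 7 of 10 above 0 and a median of 0.09, against -0.01 over all genes. The Smarcb1 difference was -0.02 (SE 0.24, 95% interval -0.52 to 0.47). With only the 2 groups compared in the limma fit, 0 members and 776 of all genes had an unadjusted p under 0.05. With library weights, which let libraries differ in their spread, 3 members and 963 of all genes did. In these 2 fits 0 of 10 members were called, against 2 and 0 of all genes.

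For the PD1 antibody alone (Veh_PD1 minus Veh_IgG), all 10 members lay below 0 and 0 of 10 were called by limma, as were 0% of all genes, and 273 of all genes but no member had an unadjusted p under 0.05. The member differences ran from -0.41 to -0.03, with a median of -0.15 against -0.04 over all genes. The lowest was that of Smarcb1, at -0.41 (SE 0.24, 95% interval -0.91 to 0.08, limma adjusted p = 1.00). Its relative level was 1.75 ± 0.25 in Veh_IgG and 1.34 ± 0.29 in Veh_PD1 (SD, n = 5 each), and the 2 groups overlapped. An exact two-sided permutation test of that single difference gave p = 0.0317, where the smallest p that 5 against 5 allow is 0.00794, and 0.159 after adjustment over the 5 comparisons of group pairs. The difference did not pass either adjusted test, and without GYY_PD1 replicates 1 and 4 in the fit it was again -0.41 (limma adjusted p = 0.785). With only the 2 groups compared in the limma fit, 1 member and 822 of all genes had an unadjusted p under 0.05. With library weights, 2 members and 1352 of all genes did. In both fits 0 of 10 members and 0 of all genes were called.

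For the combination against neither treatment (GYY_PD1 minus Veh_IgG), 0 of 10 members were called by limma and 0% of all genes, while 1 member and 2605 of all genes had an unadjusted p under 0.05. That member was Smarce1, at -0.42 (SE 0.20, unadjusted p = 0.0483, limma adjusted p = 0.293). Its relative level was 2.00, 2.03, 2.21, 1.94 and 2.09 in Veh_IgG, against 0.60, 1.86, 1.90, 1.73 and 2.08 in GYY_PD1. The low value was that of GYY_PD1 replicate 1, and without replicates 1 and 4 the Smarce1 difference was -0.11. Smarca4, the main ATPase gene, differed by -0.50 (SE 0.32, limma adjusted p = 0.377). Its relative level was 1.82, 1.11, 1.57, 1.31 and 1.47 in Veh_IgG, and -0.65, 1.30, 1.57, 1.08 and 1.48 in GYY_PD1. Here too replicate 1 of GYY_PD1 was far below the rest, and the difference without replicates 1 and 4 was -0.0041. The Smarcb1 difference was -0.29 (SE 0.24, 95% interval -0.78 to 0.21, limma adjusted p = 0.459) and became 0.041 without those 2 libraries. The median over the members was -0.06, with 3 of 10 above 0, against -0.17 over all genes. Without replicates 1 and 4 the differences of the members ran from -0.11 to 0.20, with 5 of 10 above 0.

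**Figure D2:**
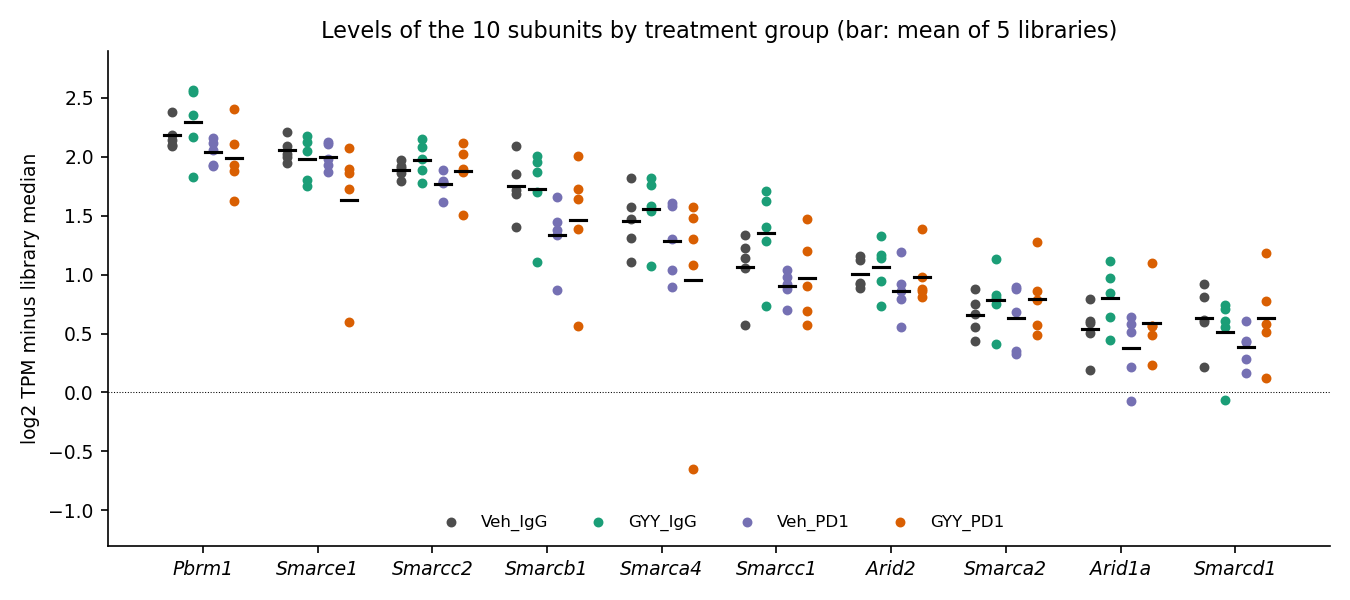
Level of each subunit relative to the library median (log2 TPM minus the median log2 TPM of the tested genes), with 1 point per library, coloured by group, and a bar at the mean of 5 libraries. The groups overlap for every subunit, and the lowest points of Smarca4 (-0.65) and Smarce1 (0.60) are both GYY_PD1 replicate 1.

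When GYY4137 was added to the PD1 antibody (GYY_PD1 minus Veh_PD1), 0 of 10 members were called, against 0.00648% of all genes. The differences of 7 members lay above 0, and that of Smarcb1 was 0.13 (SE 0.24, limma adjusted p = 0.774). The median over the members was 0.11, against -0.12 over all genes, and 0 members and 1988 of all genes had an unadjusted limma p under 0.05. Without GYY_PD1 replicates 1 and 4, the Smarcb1 difference was 0.45 (SE 0.20, limma adjusted p = 0.574), 9 of 10 members lay above 0, and 0 were called, with 2 members and 1303 of all genes at an unadjusted p under 0.05. When the PD1 antibody was added to GYY4137 (GYY_PD1 minus GYY_IgG), 0 of 10 members and 0% of all genes were called, 2 members lay above 0, and the Smarcb1 difference was -0.26. The median over the members was -0.24, against -0.17 over all genes, and 0 members and 1507 of all genes had an unadjusted limma p under 0.05. Without those 2 libraries the Smarcb1 difference was 0.061, with 3 members above 0. The interaction, which asks whether the effect of 1 treatment differed with the other, was 0.15 for Smarcb1 (SE 0.33, limma adjusted p = 0.907), with 0 of 10 members and 0% of all genes called, and 0.47 (SE 0.27, limma adjusted p = 0.999) without those 2 libraries. These comparisons share groups and are not independent of each other. Relative to the library median, in each of the 5 comparisons of group pairs, the groups failed to overlap for 0 of 10 members, against 0.875% of all genes for GYY4137 alone, 0.798% for the PD1 antibody alone and 3.26% for the combination against neither. For GYY_PD1 against Veh_PD1 and against GYY_IgG the shares of all genes were 1.06% and 0.96%.

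On the deposited scale, with no library median subtracted, all 10 members were lower in the combination than in Veh_IgG, by -2.41 to -1.77 log2 units (limma adjusted p from 0.0236 to 0.0284). On that scale 69.9% of all tested genes were called lower, with a median of -2.09, so the members shared the shift of the genes at large. In the other comparisons on that scale 0 of 10 members were called, against 0.0778% of all genes called lower for GYY_PD1 minus Veh_PD1, 0.0648% for GYY_PD1 minus GYY_IgG and 0% for the rest. The satellite-like share of TPM moved with this difference, and its part in it was not tested.

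**Figure D3:**
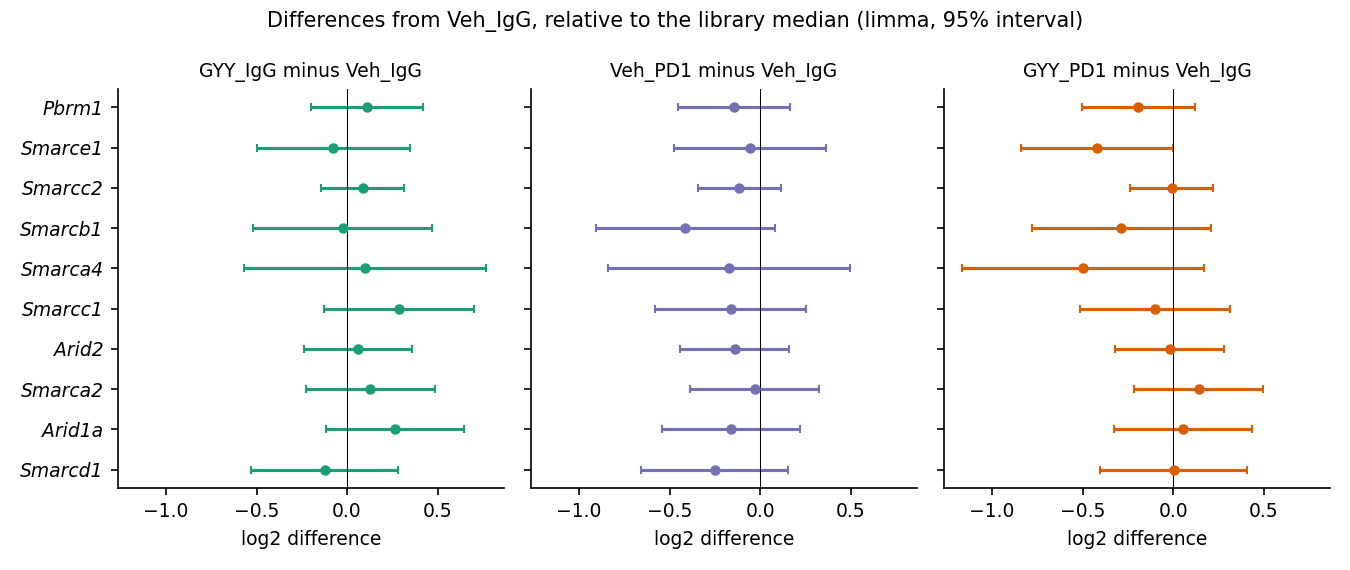
Differences from Veh_IgG on the log2 scale, relative to the library median, for the 10 subunits in GYY_IgG, Veh_PD1 and GYY_PD1; points are limma estimates and bars 95% intervals, with 0 marked by a vertical line. No subunit passed the adjusted threshold, and the interval of Smarcb1 in Veh_PD1 ran from -0.91 to 0.08.

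None of the other SWI/SNF genes passed the test either. Of 20 further genes of the complexes, 16 passed the minimum of 1 TPM in 5 libraries, and limma called 0 of the 16 in each of the 5 comparisons of group pairs. The smallest adjusted p among them was 0.231, for the combination against neither treatment. Differences lay above 0 for 8 of 16 with GYY4137 alone, for 6 with the PD1 antibody alone and for 9 with the combination. The highest was Phf10, a PBAF gene, with a median of 119 TPM. The lowest of those tested was Smarcd3, an alternative to Smarcd1 that is prominent in heart and muscle, with a median of 0.872 TPM and a level of 19.6 TPM in GYY_PD1 replicate 1. The neuronal subunit gene Actl6b, the subunit gene Dpf3, and the lymphoid and neural genes Bcl11a and Bcl11b did not pass the minimum. Brd9, Bicral and Bicra, genes of the noncanonical form, which holds no SMARCB1, had medians of 6.71, 5.61 and 2.00 TPM, all below the Smarcb1 median. They do not stand for that form as a whole. Others of the 20 further genes lay above the Smarcb1 median, among them Actl6a at 30.7 TPM and Ss18 at 24.0 TPM.

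Whether Smarcb1 RNA followed the content of host cells was asked with 15 lists of marker genes, each summarised as the mean log2 level of its tested members relative to the library median. Over 20 libraries Smarcb1 did not correlate with general immune content, a list of 12 genes such as Ptprc, the gene of the pan-leukocyte antigen CD45 (Pearson r = 0.01, Spearman rho = -0.01, permutation adjusted p = 0.971 and 0.972). That r depended on the libraries taken, and ranged from -0.11 to 0.28 when 1 library at a time was left out. For fibroblast genes, such as the collagen gene Col1a1, r was 0.40 and rho 0.42 (permutation adjusted p = 0.341 and 0.256). For endothelial genes, such as Pecam1, r was 0.24 and rho 0.23 (permutation adjusted p = 0.570 and 0.479). None of these passed the threshold, and with the 2 libraries farthest from the median of each list left out, r was -0.16, 0.45 and 0.28.

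In single tumours the content can be set beside Smarcb1 on the relative scale. The 10 fibroblast genes together ranged from 3.45 to 616 TPM. In the 3 libraries lowest in fibroblast genes relative to their medians, Veh_IgG replicate 2, Veh_PD1 replicate 5 and GYY_IgG replicate 1, the relative level of Smarcb1 was 1.404, 1.44 and 2.00. In the 3 highest, GYY_PD1 replicate 3, GYY_IgG replicate 4 and GYY_IgG replicate 5, it was 1.64, 1.70 and 1.87. Smarcb1 was above the library median at both ends of the fibroblast range, but it was so in 20 of 20 libraries. Its place above the median therefore says nothing of fibroblast content. By summed TPM the library lowest in fibroblast genes was GYY_PD1 replicate 4, at 3.45 TPM, which held the lowest relative level of Smarcb1, 0.56. On the relative scale that library ranked 12th of 20 for fibroblast genes. The 12 immune content genes summed to between 18.03 and 590 TPM. None of the 15 lists summed to 0 TPM in any library.

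Of single cell types, macrophage genes, such as Csf1r and Adgre1, had the highest Pearson correlation with Smarcb1, at r = 0.51 and rho = 0.58 (permutation adjusted p = 0.286 and 0.0506). Mitosis genes, such as Mki67 and Top2a, which mark dividing cells, followed at r = 0.48 (permutation adjusted p = 0.286) and had the highest rank correlation, at rho = 0.66 (permutation adjusted p = 0.0294). Neutrophil genes, such as S100a8, ran the other way, at r = -0.36 and rho = -0.57 (permutation adjusted p = 0.341 and 0.0506). Of these, only the rank correlation with mitosis genes passed the threshold. Without the 2 libraries farthest from the median of each list, r was 0.66 for macrophage genes, 0.60 for mitosis genes and -0.61 for neutrophil genes (permutation adjusted p = 0.0400 for each). With Smarcb1 taken relative to the other 9 subunits, r was lower for mitosis genes, at 0.16 (rho = 0.40, permutation adjusted p = 0.611 and 0.218), and was 0.40 for macrophage genes and -0.53 for neutrophil genes (permutation adjusted p = 0.465 and 0.458). For mitosis genes this 0.16 was the lowest r of all settings. It includes GYY_PD1 replicate 1, which was lowest in mitosis genes (-0.76) and had a Smarcb1 excess of 0.55. As stated above, that excess does not show a usual balance. Without GYY_PD1 replicates 1 and 4, r was 0.58, 0.54 and -0.61 for macrophage, mitosis and neutrophil genes, and the rank correlation with mitosis genes, at rho = 0.62, no longer passed (permutation adjusted p = 0.0559). Without GYY_PD1 replicate 1 alone, r was 0.63 for mitosis genes (permutation adjusted p = 0.0255) and -0.72 for neutrophil genes (permutation adjusted p = 0.00405).

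Within the classes of satellite-like share these relations did not pass the threshold. In the 10 libraries under 20%, r with Smarcb1 was 0.81 for macrophage genes (permutation adjusted p = 0.0625), 0.54 for mitosis genes, -0.65 for neutrophil genes, 0.59 for fibroblast genes, 0.25 for endothelial genes and 0.56 for immune content. In the 10 libraries over 20%, the same 6 values were 0.31, 0.34, -0.23, 0.40, 0.25 and -0.09 (permutation adjusted p from 0.840 to 0.853). The sign was the same in both classes except for immune content. The 10 libraries over 20% comprised 2 of GYY_IgG, 3 of Veh_PD1 and 5 of GYY_PD1.

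The other subunits place these values. With macrophage genes, r over 20 libraries was highest for Smarcb1 (0.51), with Smarcc2 at 0.50 and Smarca4 at 0.46. Without GYY_PD1 replicates 1 and 4, Smarcb1 was again highest, at 0.58, with Smarcd1 at 0.43 and Smarcc2 at 0.40. With mitosis genes Smarcb1 (0.48) was exceeded by 5 of the other 9, led by Smarce1 at 0.87 and Smarca4 at 0.84, both of which were low in GYY_PD1 replicate 1, where the mitosis genes were also lowest. Without the 2 libraries these values were 0.54 and 0.47, Smarcb1 was at 0.54, and Smarcc1 led at 0.68. With immune content the members ran from -0.60 for Arid2 to 0.55 for Smarca4, with Smarcb1 at 0.01. Without the 2 libraries they ran from -0.40 for Arid2 to 0.27 for Arid1a, with Smarcb1 second at 0.22 and Smarca4 at 0.016, so the high value of Smarca4 rested on those libraries. With fibroblast genes they ran from -0.09 for Smarce1 to 0.57 for Arid1a, and without the 2 libraries from -0.17 to 0.60 for the same genes, with Smarcb1 at 0.46. These are descriptions, and differences between subunits were not tested.

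**Figure D4:**
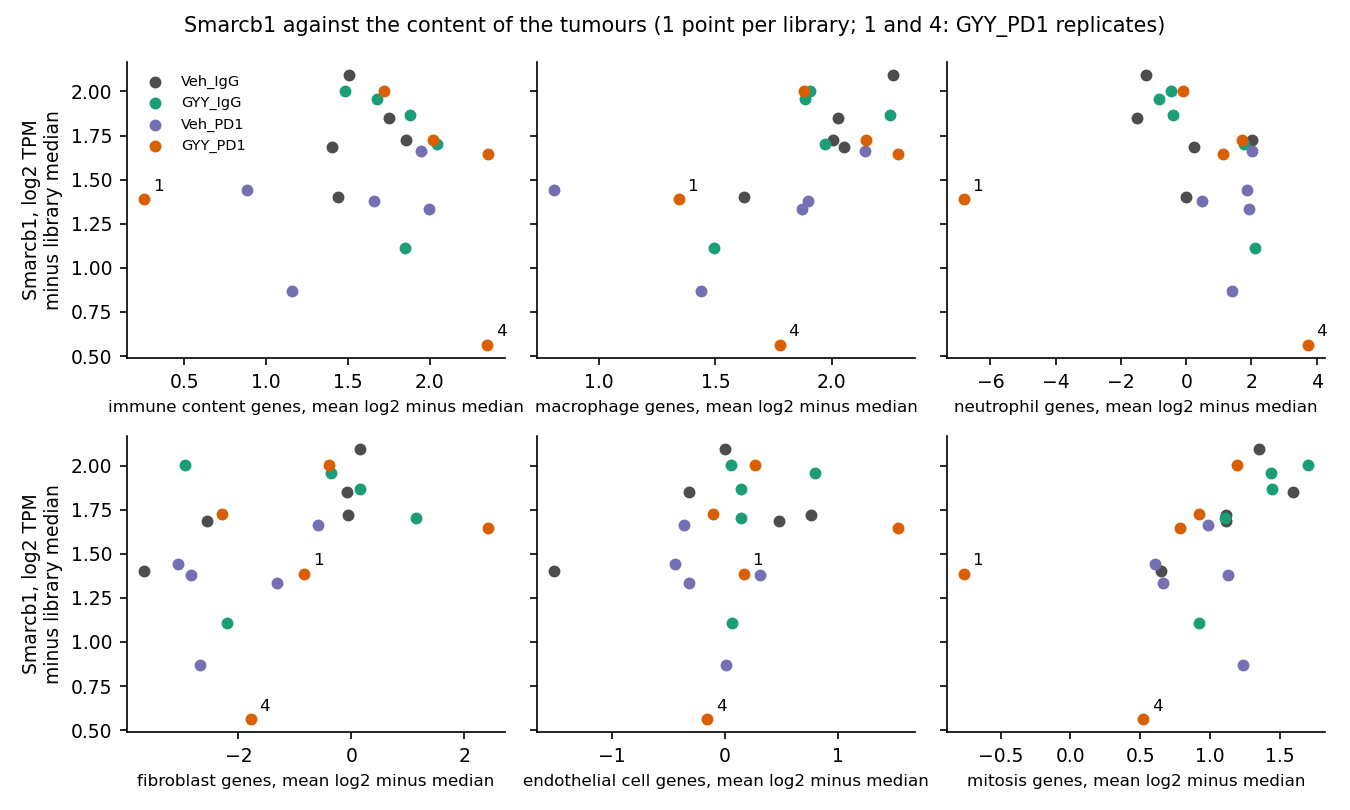
Smarcb1 (log2 TPM minus the library median, vertical axis) against the mean level of 6 lists of genes on the same scale (horizontal axis), with 1 point per library, coloured by group; GYY_PD1 replicates 1 and 4 are numbered. Smarcb1 shows no trend with immune content genes (r = 0.01) and a scattered upward trend with macrophage genes (r = 0.51) and mitosis genes (r = 0.48).

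The libraries lowest in Smarcb1 relative to the other subunits differed in their content. Veh_PD1 replicate 3 ranked 18th of 20 for immune content, macrophage and T cell genes and 16th for fibroblast genes, but 6th for mitosis genes. GYY_PD1 replicate 4 ranked 1st for neutrophil genes, 2nd for immune content and 19th for mitosis genes, and held the highest satellite-like share. The part of these contents in the Smarcb1 level was not tested.

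The genes whose levels ranked the 20 libraries most like Smarcb1 were Kif3b, a kinesin motor gene (rho = 0.92), Eef2k, the kinase of a translation elongation factor (0.89), Mbnl2, a splicing regulator (0.89), Rrm1, a subunit of ribonucleotide reductase (0.88), and Xpo7, a nuclear transport receptor (0.88). The likeness is Spearman rho relative to the library median over 20 libraries, in which the libraries share their scaling, and its median over the 12088 genes compared was 0.12. Of the other subunits, Smarcc1 was the most like Smarcb1 (rho = 0.82, 76th of all genes), followed by Pbrm1 (0.79, 158th) and Smarca4 (0.71, 499th). Smarce1 (0.43) and Smarca2 (0.31) were the least alike. Smarcd1, at 0.71 (505th), was close behind Smarca4. Of these 4, Smarcc1 and Smarca4 held the NRF1 core in the promoter windows above, as Smarcb1 did, and Pbrm1 and Smarcd1 held none.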

How the data were processed

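Total RNA was extracted with QIAzol, and Nextera XT libraries were made from cDNA, per the labels' protocols. Per the submitters' processing notes, Salmon 0.14.1, HTSeq 0.11.0, fastp, cutadapt and mm10 were used, in roles not stated. The authors deposited log2 TPM with no constant added, in which 0 TPM is written as -8.88. Values were compared as deposited after subtraction of the library median of the 15422 genes that reached 1 TPM in 5 or more libraries. limma 3.58.1 in R 4.3.3 fitted 1 model of the 4 groups with trended variance shrinkage and 16 residual degrees of freedom, and all 10 members were tested. The script was tested on simulated data. Correlations used 100000 permutations and adjustment over 15 lists. Satellite-like models, 13 in all, were found by a tandem repeat scan and words shared with Gm10800. Gene positions came from GENCODE M21. The members, lists and tests were chosen with earlier results of these data known. The 10 members are always named, as are the 5 genes most like Smarcb1, without provisional and pseudogene names. Further complex genes were to be named if called or if highest or lowest. Outside that rule, those short of the minimum, genes of the noncanonical form, Actl6a and Ss18 were also named. The labels do not say that replicate numbers pair the mice, and the main fit took them as unpaired.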

Additional observations from a re-analysis of the deposited data

Results flagged for a closer look

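Of 44 sets of 5 libraries examined for a value far from the rest (Dixon's criterion, which chance meets in about 1 of 20 sets), 3 were picked out. Smarca4, the ATPase gene, was at -0.65 log2 units relative to the library median in GYY_PD1 replicate 1, where the other libraries of the group lay between 1.09 and 1.57. Smarce1 was at 0.60 in the same library, and the others lay between 1.73 and 2.08. Smarcd1 was at -0.062 in GYY_IgG replicate 3, and the others lay between 0.55 and 0.74. No set of Smarcb1 values met the criterion.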

How the results depend on the processing

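Under all settings other than the deposited scale, 0 of 10 members passed the threshold in any comparison, those leaving out 1 library included. On the deposited scale the count was 10 for the combination against Veh_IgG, with Smarcb1 at -2.20, Smarce1 at -2.34 and Smarca4 at -2.41. The other differences of Smarcb1 stayed short of the threshold, and several changed sign. GYY4137 alone gave 0.025 rescaled to coding genes (with or without GYY_PD1 replicates 1 and 4) and 0.069 with library weights. The combination against Veh_IgG gave 0.041 without those replicates and 0.083 without them when rescaled to coding genes, where Smarca4 gave 0.039. GYY_PD1 minus Veh_PD1 gave -0.92 on the deposited scale, -0.072 rescaled and -0.0056 with a pseudocount of 1, but 0.45 without the 2 replicates and 0.49 when also rescaled. GYY_PD1 minus GYY_IgG gave 0.061 without the 2 replicates and 0.058 when also rescaled. The interaction gave -0.51 as deposited, -0.097 rescaled and 0.47 without the 2 replicates. The cause was not tested, and the versions that were both rescaled and without these replicates were chosen after seeing the data.

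Leaving out 1 library at a time, Smarcb1 ranged from -0.11 to 0.13 for GYY4137 alone (above 0 without Veh_IgG replicate 1 or 5 or GYY_IgG replicate 3), from -0.50 to -0.30 for the PD1 antibody alone, and from -0.42 to -0.060 for the combination against neither. It ranged from -0.0033 (without GYY_PD1 replicate 5) to 0.35 for GYY_PD1 minus Veh_PD1, from -0.41 to -0.036 for GYY_PD1 minus GYY_IgG, and from -0.00075 (without GYY_IgG replicate 3) to 0.38 for the interaction. The correlation with immune content ranged from -0.11 to 0.28, crossing 0 in 8 of 20 cases, with fibroblast genes from 0.35 to 0.51 and with endothelial genes from 0.19 to 0.27. The excess of Smarcb1 over the other subunits ranged from 0.44 to 0.51 in Veh_IgG, 0.33 to 0.41 in GYY_IgG, 0.15 to 0.30 in Veh_PD1 and 0.22 to 0.50 in GYY_PD1.

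On the deposited scale, where all genes of a library share its scaling, Smarcb1 correlated with immune content (r = 0.90), fibroblast (0.67), endothelial (0.90), macrophage (0.96) and mitosis genes (0.96), and with neutrophil genes at 0.42. Rescaled to coding genes, r was 0.73 for macrophage (permutation adjusted p = 0.0117), 0.78 for mitosis (permutation adjusted p = 0.00210) and 0.0089 for neutrophil genes. For immune content r was -0.14 with Smarcb1 relative to the other 9 subunits, -0.16 without the 2 farthest libraries, -0.086 in libraries over 20% satellite-like TPM and -0.037 with group means subtracted. For endothelial genes it was -0.012 relative to the other subunits without GYY_PD1 replicates 1 and 4, a setting added after seeing the data.

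The labels do not say that the replicate numbers pair the mice. The deviations of same-numbered libraries correlated at -0.085 to 0.11 (median 0.015, 30 pairs), and those of other pairs at -0.17 to 0.21 (median -0.0091, 120 pairs). Of 20 libraries, 7 correlated best with their own number. These values cannot show whether mice were paired. With the replicate block, 0 of 10 members were called in each comparison, the Smarcb1 differences were -0.02, -0.41, -0.29, 0.13, -0.26 and 0.15 in the order given in the report, and 3 of all genes rather than 0 were called in the combination. Depth is unknown, which limits what can be said of the lowest libraries.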
